A study of Oryctolagus cuniculus with 9 samples.

Results

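Gene expression at the 2 operated spinal levels of a long-term mechanical stress model was compared with sham surgery in the ligamentum flavum of the rabbit. All 9 RNA-seq libraries of the study entered the comparison: the 6 libraries from operated levels, 3 from the fused level (Fused) and 3 from the level of intervertebral stress concentration (ISC), formed one side, and 3 libraries from sham-operated rabbits (Control) the other. By their labels, the rabbits were New Zealand white males, 70 weeks old when sampled. The treatment protocol describes surgery at 18 weeks of age, in which muscle at L3-4 was resected and the adjoining levels L2-3 and L4-5 were fused posterolaterally with instruments. That protocol text stands on all 9 samples; the treatment label of Control is a sham operation, its spinal level is not given, and no genetic change or drug is named for any group. The ISC and Fused samples may share animals: no label ties a library to an animal or states that replicates are separate rabbits, and p-values therefore measure only the spread between these samples. Genes of interest were those that moved alike, that is, in the same direction and by similar amounts at both operated levels.

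The ligamentum flavum joins the laminae of neighbouring vertebrae and is unusually rich in elastin, which lets it stretch and recoil as the spine bends. Its cells are fibroblast-like and embed the elastic fibres in collagens, proteoglycans and matricellular glycoproteins. In degenerating human ligamentum flavum, loss of elastic fibres, collagen build-up and patches of cartilage-like tissue are well described. Secreted antagonists of bone morphogenetic proteins (BMPs), Wnt antagonists and transforming growth factor signals are among the known regulators of such matrix. The ligament attaches to bone, and bone marrow, fat, muscle and synovium lie beside it.

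The values were read counts divided by a size factor for each library, called scaled counts here. Between 1233155 and 1869209 reads lay in genes in each library, and 14700 to 15954 of 23407 named genes had at least 1 read. Ligament genes ELN, FBN1, COL1A1, COL3A1, MKX and THBS4 were read in all 9 libraries, while the tendon and ligament gene TNMD was read only in Control replicate 2 and ISC replicate 3. Haemoglobin genes took 0.248%, 0.0963% and 0.233% of reads in Control, 1.55%, 5.64% and 6.41% in Fused and 0.480%, 5.00% and 0.421% in ISC. Every operated library thus held a larger share than every Control library. A fit with this share as a covariate therefore cannot fully separate it from surgery. The mean share was 3.25% ± 2.73 (SD, n = 6) in operated and 0.192% ± 0.0835 (SD, n = 3) in Control libraries (exact permutation test, two-sided, p = 0.0238, the smallest that 84 arrangements can give). Fused replicates 2 and 3 and ISC replicate 2 were the 3 haemoglobin-rich libraries. Mitochondrial transcripts took 7.96% ± 3.69 (SD, n = 6) of reads in operated and 7.07% ± 1.31 (SD, n = 3) in Control libraries (exact permutation test, two-sided, p = 0.857).

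Few genes passed the test of operated levels against sham, and those that did moved alike at both levels. Of 15758 genes with a scaled count of 1 or more in at least 3 libraries, 4 (0.0254%) were called at an adjusted p under 0.05 with limma, 2 (0.0127%) higher and 2 (0.0127%) lower. Each of the 4 changed in the same direction at both levels, with the smaller change at least 0.5 times the larger on the log2 scale, and without overlap between the 6 operated and the 3 Control libraries. Both levels are set against the same 3 Control libraries, so their changes are not independent. An unadjusted p under 0.05 was reached by 2330 genes (14.8%), 1265 (8.03%) higher and 1065 (6.76%) lower. edgeR on the recovered reads called 1 gene, whereas DESeq2 called 620, of which 370 did not overlap between operated and Control libraries. After quantile normalization the limma calls were 1 higher and 2 lower. None of the 4 was called by limma without Control replicate 3, without the 3 haemoglobin-rich libraries or with the log haemoglobin share as a covariate.

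RAB9A, a small GTPase that carries cargo from late endosomes to the trans-Golgi network, rose. Its row is a single block on an unplaced scaffold of oryCun2 (Un1080:17350-17919, minus strand). No read fell in it in any Control library, while its scaled counts were 19.7, 41.2 and 107 in Fused and 44.0, 93.1 and 45.1 in ISC replicates 1 to 3. All operated libraries were therefore above 0 and all Control libraries at 0. Against a floor of 3 reads per Control library, the operated mean of 58.4 ± 33.9 (SD, n = 6) was at least 20.6-fold higher. The fitted log2 change was 5.68 (SE 0.494, limma adjusted p = 0.00406), a value that depends on the pseudocount. Fused and ISC differed by -0.35 on the log2 scale, with a 95% interval from -1.62 to 0.92. RAB9A was also called in each level's own fit against Control (limma adjusted p = 0.0142 for Fused and 0.00465 for ISC). These 2 fits share the Control libraries and are not independent. Without Control replicate 3, its adjusted p was 0.0528. The change was 4.94 without the 3 haemoglobin-rich libraries and 4.28 with the log haemoglobin share as a covariate.

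The 3 other called rows carry only locus identifiers in the deposited table. LOC103352172 (Un0009:255228-280691, 8 blocks) rose: it had no read in Control and scaled counts of 4.65, 8.05 and 6.56 in Fused and 8.58, 7.16 and 15.0 in ISC. The operated mean of 8.34 ± 3.56 (SD, n = 6) was at least 2.95-fold higher, with a log2 change of 3.15 (SE 0.391, limma adjusted p = 0.0392). LOC100358370, a single block on chromosome 16 (7439693-7440409), fell from 103, 43.9 and 50.5 in Control to between 1.09 and 3.02 in Fused and at most 1 read in ISC. Its log2 change was -5.09 (SE 0.459, limma adjusted p = 0.00406), and it was the single gene that edgeR called. LOC100344154, a single block on chromosome 10 (12911713-12912190), fell from 10.4, 8.78 and 7.83 in Control to 0 in all 6 operated libraries, at least 2.51-fold. Its adjusted p was 0.0101 (limma). Whether reads of near-identical copies entered single-block rows such as these and RAB9A was not tested, since the counting method is not known. Only 3 rows had no Control read and at least 3 reads in every operated library: RAB9A, LOC103352172 and MCEMP1, a membrane protein gene of mast cells and other myeloid cells. MCEMP1 ranged from 5.02 to 131 in operated libraries, with a mean of 46.3 ± 50.01 (SD, n = 6) that was at least 16.4-fold higher than in Control, and did not pass the test (limma adjusted p = 0.157).

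**Figure D1:**
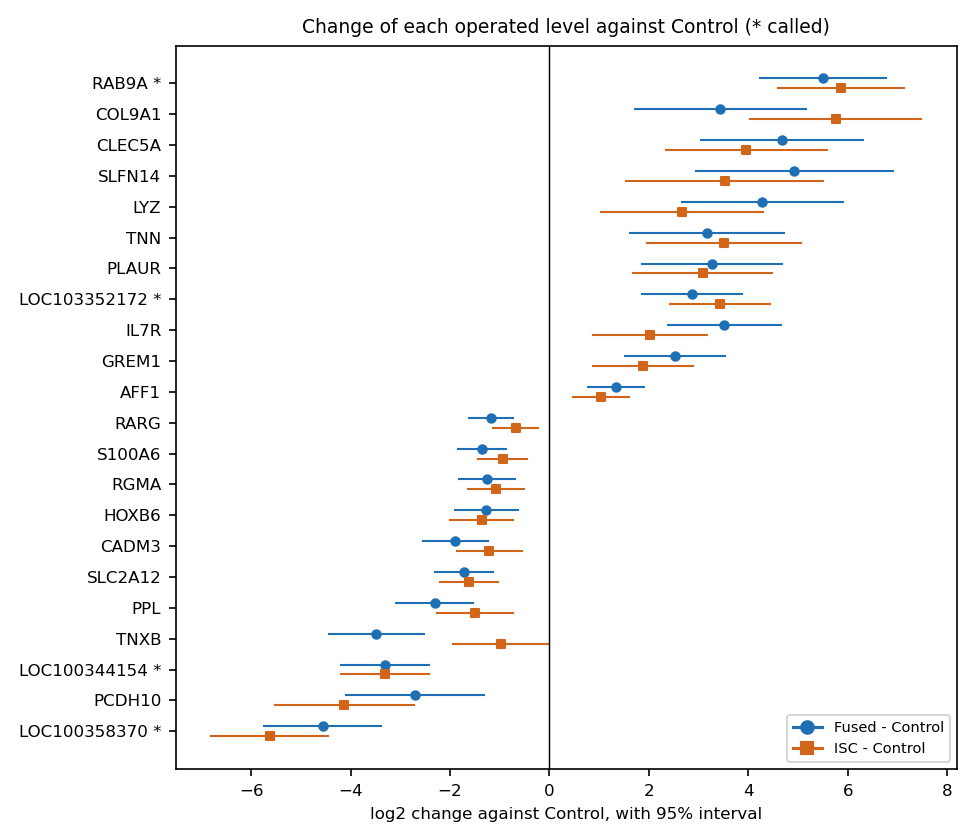
Log2 change of Fused (blue circles) and ISC (orange squares) against Control, with 95% limma intervals, for 22 genes named by rule; asterisks mark the 4 called genes. For RAB9A the 2 levels lie at 5.51 and 5.86, and for TNXB they lie apart, at -3.49 and -0.97.

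Beyond the called genes, 627 genes (3.98%) had all 6 operated libraries above all 3 Control libraries and 512 (3.25%) had all 6 below. Both levels changed by similar amounts in 585 (3.71%) and 422 (2.68%) of these. The split leaned the other way after quantile normalization, with 485 above and 599 below. The genes above were farther from Control, with a median log2 change of 1.49 (quartiles 0.66 and 2.78) and 395 genes at 1 or more. Those below had a median of -0.70 (quartiles -1.02 and -0.47), and 137 genes at -1 or less. The median over all tested genes was 0.01. In 347 (55.3%) of the genes above, the 3 highest values came from the 3 haemoglobin-rich libraries, and over all tested genes those 3 libraries were the highest of the 6 operated ones in 14.3%. The lowest 3 values came from those libraries in 86 (16.8%) of the genes below, and they were the lowest of the 6 operated libraries in 7.38% of all tested genes. With the 3 haemoglobin-rich libraries left out, 1239 genes (7.86%) lay above and 1070 (6.79%) below Control. This condition is looser, since 3 rather than 6 operated libraries had to separate. The part of blood or marrow RNA in these gene differences was not tested, and in whole tissue, fewer cells of a type and less RNA per cell cannot be told apart.

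The genes described next come from the 20 with the smallest p among named genes without overlap, 10 above and 10 below. Of these, RAB9A alone was called by limma for operated levels against Control. In the same fit, CLEC5A, IL7R, SLC2A12, PPL, CADM3 and TNXB were called in Fused against Control only, and COL9A1 in ISC against Control only. All 20 had an unadjusted p under 0.05, and DESeq2 called all 20, edgeR none. Because the genes were chosen by small p and lack of overlap in the same libraries, the p-values and all these calls are no separate evidence.

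Among the 10 higher genes, COL9A1 and TNN encode matrix proteins and GREM1 a secreted antagonist. COL9A1 encodes a chain of type IX collagen, which coats the collagen fibrils of cartilage. It was near 0 in Control (0.943, 0 and 0.870), reached 17.4, 57.3 and 3.28 in Fused, and 87.9, 78.8 and 80.3 in ISC. Its log2 change was 4.60 (SE 0.672, limma adjusted p = 0.0835). The ISC libraries were all above the Fused ones, and the difference between the levels was -2.32 on the log2 scale (95% interval -4.05 to -0.60, limma adjusted p = 0.209). TNN, a tenascin of bone and other dense connective tissue, was at 2.83, 7.19 and 19.1 in Control, 60.4, 115 and 63.4 in Fused, and 81.5, 41.8 and 261 in ISC. The log2 changes were 3.17 in Fused and 3.51 in ISC, a difference of -0.34 (95% interval -1.89 to 1.21), and the adjusted p of the pooled operated contrast was 0.157 (limma). GREM1, a secreted BMP antagonist, was at 12.3, 10.4 and 16.5 in Control, 77.8, 43.2 and 141 in Fused, and 38.6, 37.0 and 88.3 in ISC. Its log2 change was 2.20 (SE 0.392, limma adjusted p = 0.147).

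Besides these and RAB9A, the other 6 higher genes are known from immune cells, blood lineages or general transcription. CLEC5A, a lectin receptor of myeloid cells, was at 1.09 ± 1.21 (SD, n = 3) in Control, and 10.7 to 92.5 in the operated libraries, a log2 change of 4.32 (limma adjusted p = 0.0835). PLAUR, the urokinase receptor that localises plasminogen activation to the cell surface, had scaled counts of 2.83, 0 and 2.61 in Control, 12.8, 40.2 and 20.8 in Fused, and 11.8, 26.3 and 23.1 in ISC. Its log2 changes of 3.27 and 3.08 at the 2 levels differed by 0.19 (95% interval -1.21 to 1.59). IL7R, the interleukin-7 receptor of lymphoid cells, was under 1 in every Control library, and at 12.8 to 21.9 in Fused and 3.22 to 9.55 in ISC. The lysozyme gene LYZ (locus row LOC100341160, a single block) was at 13.4 ± 5.27 (SD, n = 3) in Control and 40.7 to 679 in the operated libraries. SLFN14, a ribosome-associated endoribonuclease of the platelet and red cell lineages, had a Control mean of 2.23 and operated values from 13.9 to 159. AFF1, a scaffold of transcription elongation complexes, had the smallest change of the 10, 1.19 on the log2 scale, from 92.4, 113 and 113 in Control to 235, 314 and 269 in Fused and 153, 323 and 208 in ISC. CLEC5A, LYZ, SLFN14 and AFF1 had their 3 highest values in the 3 haemoglobin-rich libraries. COL9A1, TNN, GREM1, IL7R, PLAUR and RAB9A did not.

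Cell adhesion and signalling genes were among the lower ones. SLC2A12, a glucose transporter, came nearest to a call for operated levels against Control. It was at 54.7, 68.7 and 49.6 in Control, 18.6, 16.1 and 15.3 in Fused, and 16.1, 22.7 and 16.1 in ISC. The operated values lay close together, and the log2 change was -1.67 (SE 0.228, limma adjusted p = 0.0602), with -1.72 in Fused and -1.61 in ISC. PCDH10, a protocadherin of cell-cell contacts, was at 43.4, 101 and 67.0 in Control, 4.37 to 14.1 in Fused and 1.07 to 8.35 in ISC. Its log2 change of -3.41 was the largest of the 10. CADM3, a cell adhesion molecule, was at 84.4 ± 4.71 (SD, n = 3) in Control and between 18.6 and 50.4 in operated libraries, and PPL, a plakin that links junctions to the cytoskeleton, had a Control mean of 606 and operated values from 78.5 to 244. S100A6, a calcium-binding protein of fibroblasts and many other cells, was at 655 ± 120 (SD, n = 3) in Control and 192 to 370 in operated libraries. For PPL, CADM3 and S100A6 the 3 lowest values were those of the 3 haemoglobin-rich libraries.

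Receptor, transcription factor and matrix genes made up the other lower ones described. RGMA, a BMP co-receptor, had 56.6, 59.1 and 48.7 in Control, 24.4, 23.1 and 19.7 in Fused, and 34.3, 21.5 and 22.1 in ISC, a log2 change of -1.17. The retinoic acid receptor gene RARG was at 372 ± 41.5 (SD, n = 3) in Control and 134 to 258 in operated libraries, a log2 change of -0.93. HOXB6, a homeobox transcription factor that helps set position along the body axis, was at 115, 83.1 and 107 in Control, 44.1, 39.2 and 40.5 in Fused, and 53.6, 44.2 and 24.1 in ISC. Its changes at the 2 levels were -1.27 and -1.36, and differed by 0.09 (95% interval -0.54 to 0.72). TNXB encodes tenascin-X, a matrix glycoprotein that organises collagen fibrils and whose loss causes lax connective tissue. Its scaled counts were 686, 874 and 545 in Control, 128, 56.3 and 30.6 in Fused, and 323, 468 and 284 in ISC. Of the 20 genes, TNXB alone failed the rule that the smaller change be at least 0.5 times the larger. Its Fused change of -3.49 and ISC change of -0.97 differed by -2.51 (95% interval -3.47 to -1.55, limma adjusted p = 0.0227). For 12 of the 20, the interval of the difference between the levels spanned 0. Among the genes described, it excluded 0 for COL9A1, IL7R, PCDH10, PPL, CADM3, RARG and TNXB, of which TNXB alone had an adjusted p under 0.05 (limma). Meeting the rule thus does not mean equal changes.

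**Figure D2:**
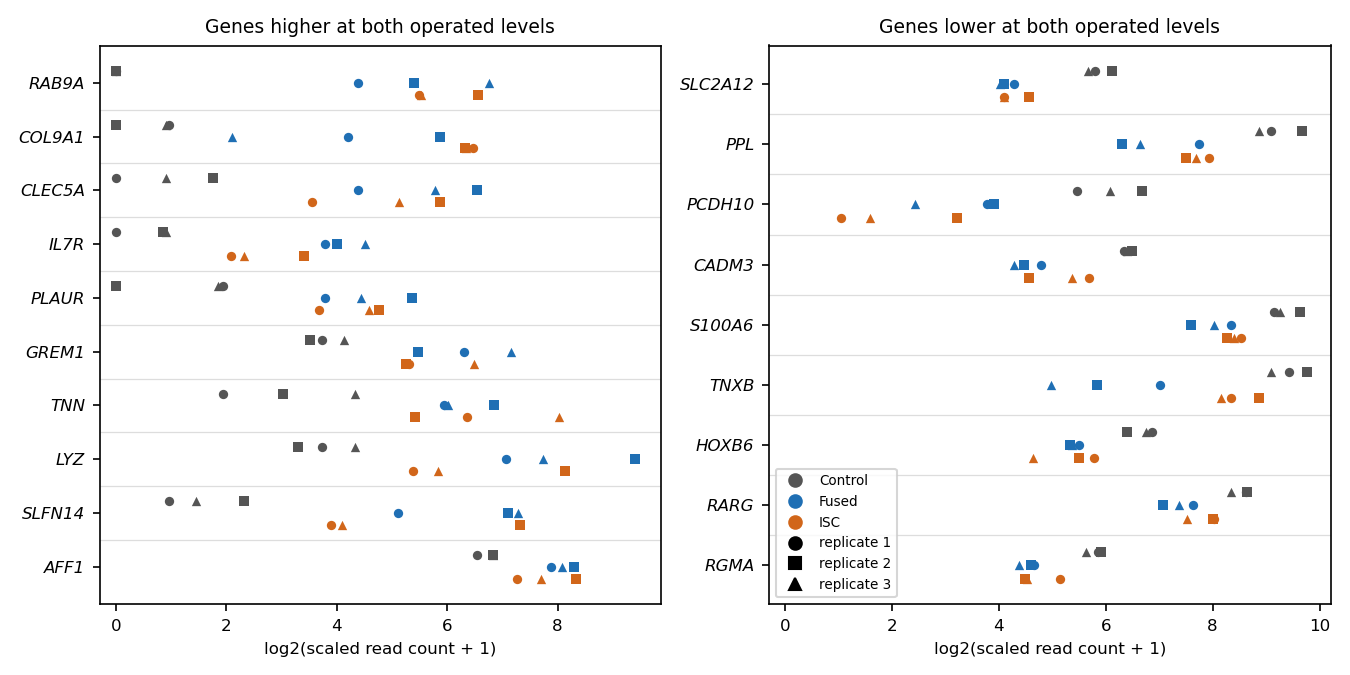
Scaled counts, as log2(scaled count + 1), of 10 named genes above (left) and 9 below Control (right) in each of the 9 libraries; colour marks the group and symbol the replicate number. By the rule that chose the genes, in each row the grey Control points lie apart from all blue Fused and orange ISC points. For SLC2A12, Control ran from 49.6 to 68.7 and the operated libraries from 15.3 to 22.7.

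Members of 40 gene lists for tissues, cell types and pathways were then counted. For operated levels against Control, none of their 505 tested genes passed limma's adjusted test or edgeR's, while DESeq2 called 93. An unadjusted p under 0.05 was reached by 163, 97 of them higher and 66 lower, beside 14.8% of all tested genes. Without overlap, 44 lay above and 16 below Control, beside 3.98% and 3.25% of all tested genes, so that the members below were about as frequent as among all genes. Group descriptions below therefore rest on counts and levels, and Fused and ISC are compared with the same Control libraries. Some members were called by limma in a single level against Control or between the levels.

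Genes of red cell precursors, neutrophils and dividing cells were higher in operated libraries. Of 15 tested erythroid genes, 12 lay above Control in all 6 operated libraries and none below, with a median log2 change of 3.83 (4.69 in Fused and 2.97 in ISC). Their summed scaled count was 125 to 302 in Control, 1730 to 10143 in Fused and 668 to 12687 in ISC. ALAS2, the first enzyme of haem synthesis in red cells, was at 119, 35.1 and 83.5 in Control, 670, 2801 and 3367 in Fused, and 217, 2732 and 282 in ISC. The 3 haemoglobin-rich libraries held the highest values, well apart from the other operated libraries, which in turn lay above Control. HEMGN, a nuclear protein of erythroid cells, was 2.40 to 5.66 in Control, 101 to 683 in Fused and 19.1 to 943 in ISC. RHAG, a red cell membrane ammonia channel protein, was at 0 in Control replicates 1 and 2, and 3.01 to 243 in operated libraries. GATA1, the master erythroid transcription factor, was at most 1.89 in Control and 5.02 to 119 in operated libraries.

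Neutrophil granule genes behaved likewise: 8 of 12 lay above Control and none below, with a median log2 change of 4.48. Their summed scaled count was 105 to 290 in Control, 2364 to 24686 in Fused and 490 to 18058 in ISC. S100A8, one chain of calprotectin, was at 41.5, 17.6 and 52.2 in Control, 494, 4915 and 2713 in Fused, and 207, 3382 and 108 in ISC. Even ISC replicate 3, the lowest operated library, was above the highest Control. LCN2, an iron-siderophore-binding protein of granules, ranged from 23.6 to 73.9 in Control and from 81.3 to 6070 in operated libraries. CSF3R, the receptor that drives neutrophil formation, was at most 1.89 in Control and 7.02 to 134 in operated libraries.

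Among 22 genes of dividing cells, 9 lay above Control and none below, and all 22 had a positive change, with a median of 2.77. Their sum was 165 to 221 in Control, 427 to 2935 in Fused and 234 to 3505 in ISC. MKI67, the proliferation marker, was at 6.60, 4.79 and 6.09 in Control, 41.8, 337 and 461 in Fused, and 19.3, 740 and 13.0 in ISC. RRM2, a ribonucleotide reductase subunit that supplies DNA precursors, was 1.89 to 3.19 in Control and 14.0 to 266 in operated libraries. These values followed the haemoglobin-rich libraries too. With those 3 libraries left out, the medians were 2.45 for the erythroid, 2.82 for the neutrophil and 1.33 for the cell cycle list, and 12 of 14 erythroid, 8 of 10 neutrophil and 9 of 21 cell cycle genes lay above Control. Beside these, 8.61% of all genes tested in that setting lay above Control, where 3 rather than 6 operated libraries had to separate. With the log haemoglobin share as a covariate, the medians were -0.23, -0.04 and -0.98, so that none stayed positive. That share was higher in every operated than in every Control library, so this fit cannot fully separate it from surgery.

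Other leukocyte lists held fewer such genes. From 13 macrophage genes, CD14, LYZ and SPI1 lay above Control. CD14, the co-receptor for lipopolysaccharide, was at 3.77, 9.58 and 13.9 in Control, 52.3, 83.5 and 50.3 in Fused, and 16.1, 75.2 and 129 in ISC, with changes of 2.75 and 2.61 that differed by 0.15 (95% interval -1.36 to 1.65). The summed macrophage list was 240 to 360 in Control, 520 to 1505 in Fused and 182 to 1173 in ISC, so that ISC overlapped Control. JCHAIN, the joining chain of secreted immunoglobulin, was at 20.7 ± 10.3 (SD, n = 3) in Control and 33.2 to 668 in operated libraries, and with IL7R it was 1 of 2 among 12 lymphocyte genes. From 4 mast cell genes, MS4A2 lay above Control. Of 11 inflammatory mediators, the neutrophil attractant CXCL8 (1.60 to 9.43 in Control, 49.9 to 170 in Fused and 9.65 to 62.1 in ISC) and the marrow niche chemokine CXCL12 (63.1 to 116, 325 to 1150 and 124 to 747) lay above Control.

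**Figure D3:**
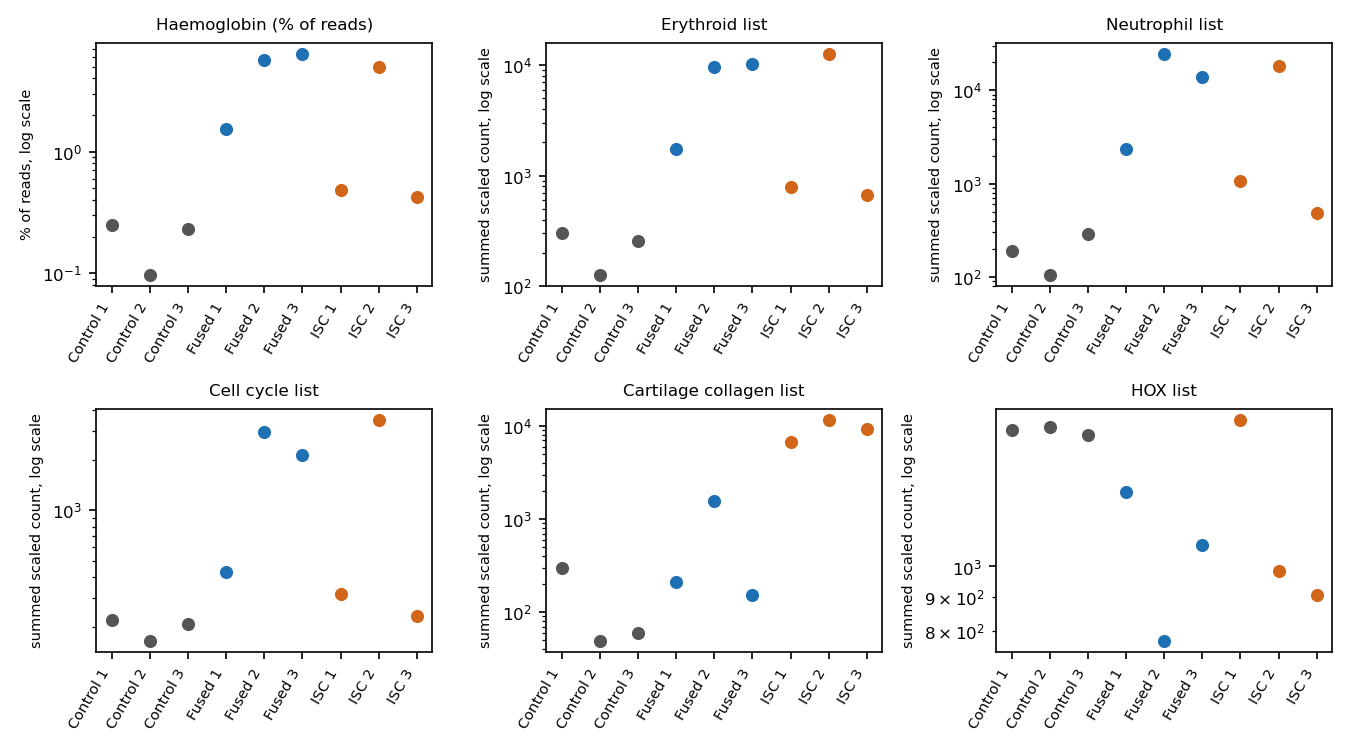
Haemoglobin share of reads and summed scaled counts of 5 gene lists in each of the 9 libraries, on log axes; points are coloured by group. Fused replicates 2 and 3 and ISC replicate 2 hold the highest haemoglobin, erythroid, neutrophil and cell cycle values, whereas the cartilage collagen sum is highest in the 3 ISC libraries, from 6732 to 11738.

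Cartilage collagen genes were high at the stress concentration level, while Fused libraries overlapped Control in their summed level. All 7 tested cartilage collagen genes had positive changes with a median of 3.44 (2.12 in Fused and 5.08 in ISC), and all 7 had an unadjusted p under 0.05. Their summed scaled count was 48.7 to 298 in Control, 152 to 1563 in Fused and 6732 to 11738 in ISC, and COL9A1 was the single one without overlap. COL2A1, the main collagen of cartilage, was at 18.9, 3.19 and 9.57 in Control, 74.3, 805 and 15.3 in Fused, and 3555, 7738 and 5171 in ISC. Fused replicate 3 fell within the Control range, and every ISC library was above all others. Its operated log2 change was 6.23 (SE 0.978, limma adjusted p = 0.112), and the levels differed by -5.71 (95% interval -8.22 to -3.20, limma adjusted p = 0.0397). In the same fit COL2A1 was called in ISC against Control (limma adjusted p = 0.0293) and not in Fused (0.155). COL9A2, another type IX chain, was at 9.43, 3.19 and 4.35 in Control, 15.1, 73.4 and 7.65 in Fused, and 172, 150 and 180 in ISC. COL9A1 and COL9A2 were also called in ISC against Control (limma adjusted p = 0.0293 and 0.0339), and neither in Fused. Without the 3 haemoglobin-rich libraries the list's median was 3.11, and with the haemoglobin share as a covariate 3.05.

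The other cartilage genes did not follow: of 11 tested, FRZB alone lay above Control, and the median was -0.89 in Fused and 2.28 in ISC. FRZB, a secreted Wnt antagonist of cartilage, was at 7.54, 3.19 and 19.1 in Control, 34.8, 106 and 26.2 in Fused, and 540, 35.8 and 218 in ISC (log2 change 3.29, limma adjusted p = 0.162). Levels differed in 5 of the 11, beside 1.36% of all tested genes. Among the 5 was SOX9, the regulator of cartilage formation, at 131, 54.3 and 44.4 in Control, 24.4, 26.2 and 16.4 in Fused, and 139, 146 and 80.3 in ISC. Its Fused libraries were the lowest of all 9. Of 11 matricellular genes, TNN and WISP1 lay above Control. WISP1, a secreted signalling protein induced by Wnt, was at 14.8 ± 4.47 (SD, n = 3) in Control, 23.2 to 63.4 in Fused, and 26.8 to 254 in ISC.

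Elastic fibre genes tended to lower values in Fused and basement membrane genes at both levels, with few that separated from Control. In the elastic fibre list, 15 of 19 genes had a negative change with a median of -0.66 (-1.13 in Fused and 0.19 in ISC), and FBLN1 and LTBP4 lay below Control. After median centring 0 of the 19 lay below, and after quantile normalization 3 did. The levels differed in 6 of the 19, beside 1.36% of all tested genes. FBLN1, a fibulin bound to elastic fibres and basement membranes, was at 3380, 3809 and 3026 in Control, 1910, 823 and 843 in Fused, and 2957, 1371 and 691 in ISC, a log2 change of -1.44 (SE 0.432, limma adjusted p = 0.194). LTBP4, which helps assemble elastic fibres and tethers latent transforming growth factor, was at 798 ± 112 (SD, n = 3) in Control, 173 to 429 in Fused, and 421 to 667 in ISC. Basement membrane genes were negative in 13 of 14, with a median of -0.42. COL4A6 (28.7 ± 4.96 in Control, SD, n = 3, and at most 22.5 in operated libraries) and the laminin chain gene LAMB2 (1697 ± 269 and 454 to 1485) lay below Control. Without the 3 haemoglobin-rich libraries the elastic fibre and basement membrane medians were -0.37 and -0.05. With the haemoglobin share as a covariate they were -0.20 and 0.09, so that the fall of the second did not remain.

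In signalling and protease lists few genes lay apart from Control. Over all tested genes, 3.98% lay above and 3.25% below, so these genes are given as values only. Of 25 Wnt and BMP genes, GREM1 lay above Control and SFRP4 was among those below. The list's median of -0.27 moved to 0.13 with the haemoglobin share as a covariate and to about 0 without the 3 haemoglobin-rich libraries. SFRP4, a secreted Wnt antagonist, was at 831, 795 and 464 in Control, 152, 220 and 228 in Fused, and 181, 266 and 449 in ISC, a log2 change of -1.52 (SE 0.295, limma adjusted p = 0.157). SMAD6, which restrains BMP signals inside the cell, was the single 1 of 16 genes of the transforming growth factor list, at 35.8, 47.1 and 40.0 in Control, 27.9, 19.1 and 20.8 in Fused, and 25.7, 27.5 and 19.1 in ISC. Its changes of -0.84 and -0.75 at the 2 levels differed by -0.09 (95% interval -0.68 to 0.50). ADAMTS5, an aggrecan-cutting protease, was at 85.8, 113 and 136 in Control, 42.2 to 79.0 in Fused and 25.1 to 78.2 in ISC, the single 1 of 18 proteases without overlap.

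Few heat shock, stress response and clock genes lay apart from Control, and those that did were mostly below it. Below Control were 2 of 11 heat shock, 1 of 13 endoplasmic reticulum stress, 1 of 15 clock and 1 of 12 immediate early genes. Beside these, 3.25% of all tested genes lay below. All 11 heat shock genes had negative changes, with a median of -0.19. HSP90AB1 and HSPB1 lay below Control, though after quantile normalization 0 of the 11 did. HSP90AB1, a constitutive chaperone, was at 1914 ± 134 (SD, n = 3) in Control and 1680 ± 79.5 (SD, n = 6) in operated libraries, and its log2 change of -0.19 had a 95% interval from -0.58 to 0.21. DDIT3, a transcription factor of the unfolded protein response, was at 107, 153 and 121 in Control, 73.2, 54.3 and 64.5 in Fused, and 69.7, 74.0 and 91.3 in ISC (log2 change -0.83). The clock output factor TEF was at 316, 311 and 325 in Control and 128 to 231 in operated libraries (log2 change -0.80). JUN, an immediate early transcription factor, was at 566, 248 and 271 in Control and 76.4 to 200 in operated libraries (log2 change -1.18). Antioxidant genes split, with GCLM, a subunit of the glutathione-making ligase, above Control (17.9 to 27.2 against 29.0 to 180) and NQO1, a quinone reductase, below (58.3 to 63.5 against 34.6 to 56.9).

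HOX genes, listed after their values were seen, leaned lower at both levels. Of 36 with a row, 29 were tested, 25 had a negative change, and HOXA2, HOXA6, HOXB2, HOXB6, HOXC6 and HOXC9 lay below Control in all 6 operated libraries, beside 3.25% of all tested genes. The median log2 change was -0.43 (-0.50 in Fused and -0.42 in ISC), against 0.01 for all tested genes. The summed HOX scaled count was 1579 to 1625 in Control, 771 to 1297 in Fused and 905 to 1665 in ISC, so that ISC replicate 1, the highest, lay above Control. HOXC6 was at 158, 184 and 161 in Control, 110, 54.3 and 103 in Fused, and 137, 97.9 and 54.2 in ISC. HOXC9 was at 70.7, 71.1 and 76.5 in Control and 27.2 to 64.5 in operated libraries. Neither passed the test (limma adjusted p = 0.21 and 0.238). Differences between the levels were small for the 6, from -0.08 to 0.19, with no interval excluding 0. Without the 3 haemoglobin-rich libraries the median was -0.20 and 8 of 28 genes lay below Control, and with the haemoglobin share as a covariate the median was -0.08. Read assignment between neighbouring or antisense genes of the clusters is uncertain, since the strand setting of the counting is not known.

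Other genes differed between the 2 operated levels, and some of these were also called against Control at 1 level. Between Fused and ISC, 214 genes (1.36%) differed at an adjusted p under 0.05 (limma), beside the 4 called for operated levels against Control. In the same fit, 25 genes (0.159%) were called in Fused against Control and 14 (0.0888%) in ISC against Control, and the 4 genes above were the ones called at both with the same sign. Among the non-overlapping genes, 0 of the 627 higher and 1 of the 512 lower, TNXB, also differed between the levels. PRG4, the joint lubricant lubricin, was at 4058, 2180 and 2250 in Control, 209, 37.2 and 54.7 in Fused, and 1387, 4109 and 5494 in ISC. All Fused libraries lay below Control (limma adjusted p = 0.0219 for Fused against Control), and the ISC libraries lay around it. The difference between levels was -5.37 (95% interval -6.81 to -3.93, limma adjusted p = 0.00831). ELN, the elastin gene, was at 1394, 2046 and 1001 in Control, 411, 265 and 146 in Fused, and 1757, 3754 and 1260 in ISC, a difference between levels of -3.00 (limma adjusted p = 0.0165). COL3A1, a fibrillar collagen of elastic tissues, differed by -3.40 in the same direction (limma adjusted p = 0.0364). DMP1, a mineral matrix protein of osteocytes, went the other way: it was at 0, 1.60 and 0 in Control, 32.5, 171 and 106 in Fused, and 1.07, 7.16 and 5.02 in ISC (difference 4.19, limma adjusted p = 0.0252). DMP1 was also called in Fused against Control (limma adjusted p = 0.0219).

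Fat genes were low at the stress concentration level. Of 11 adipocyte genes, 10 had a negative operated change, with a median of -1.16 that came from ISC (-2.32) and not from Fused (0.13). Between the levels 5 of the 11 differed, beside 1.36% of all tested genes. The operated median was -0.59 without Control replicate 3 and -1.69 without Control replicate 1. Their summed scaled count was 1712 to 6419 in Control, 3301 to 5924 in Fused and 993 to 1154 in ISC. Among 13 lipid metabolism genes, 12 were negative (median -0.68) and 5 differed between levels. PCK1, which makes the glycerol backbone of stored fat in adipocytes, was at 35.8, 57.5 and 89.6 in Control, 19.7, 39.2 and 61.2 in Fused, and 5.36, 1.19 and 3.01 in ISC (difference 3.29, limma adjusted p = 0.0192). GPD1, of the same glycerol pathway, was at 80.1, 217 and 324 in Control, 138, 79.5 and 77.6 in Fused, and 19.3, 5.97 and 9.03 in ISC. PCK1 and GPD1 were called in ISC against Control (limma adjusted p = 0.0293 for each) and not in Fused. RETN, listed as an adipocyte hormone and in humans made mainly by leukocytes, was the one list member above Control, at up to 52.3 in operated libraries and at most 0.870 in Control.

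Several lists gave no gene without overlap. None of 18 collagen genes outside cartilage did so, and their median was -1.41 in Fused and 0.86 in ISC. Between the levels 9 of the 18 differed, beside 1.36% of all tested genes. COL1A1 was at 3144, 5380 and 3519 in Control, 1963, 18111 and 1644 in Fused, and 3343, 20579 and 13586 in ISC, so that all groups overlapped. Skeletal muscle genes had a median of -2.03, and 0 of 14 lay apart. ACTA1, the skeletal actin, was at 915, 0 and 82.6 in Control, 3.48, 9.05 and 3.28 in Fused, and 153, 0 and 5.02 in ISC. Without Control replicate 1 the muscle median was -0.32, and without Control replicate 2 it was -3.72. Vessel endothelial (median -0.20), lymphatic (-1.07), mural (-0.55), nerve (0.31), bone (1.67), osteoclast (0.13), interferon (0.12), complement (-0.14), ribosomal (0.04) and respiratory chain (0.05) lists likewise had 0 genes apart from Control. The bone median was 2.51 in Fused and 0.65 in ISC, and 10 of its 11 tested genes had a positive change. Of the 11, 5 were higher at an unadjusted p under 0.05 (limma), beside 8.03% of all tested genes. Without the 3 haemoglobin-rich libraries the endothelial, mural and bone medians were 0.26, 0.13 and 0.63.

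**Figure D4:**
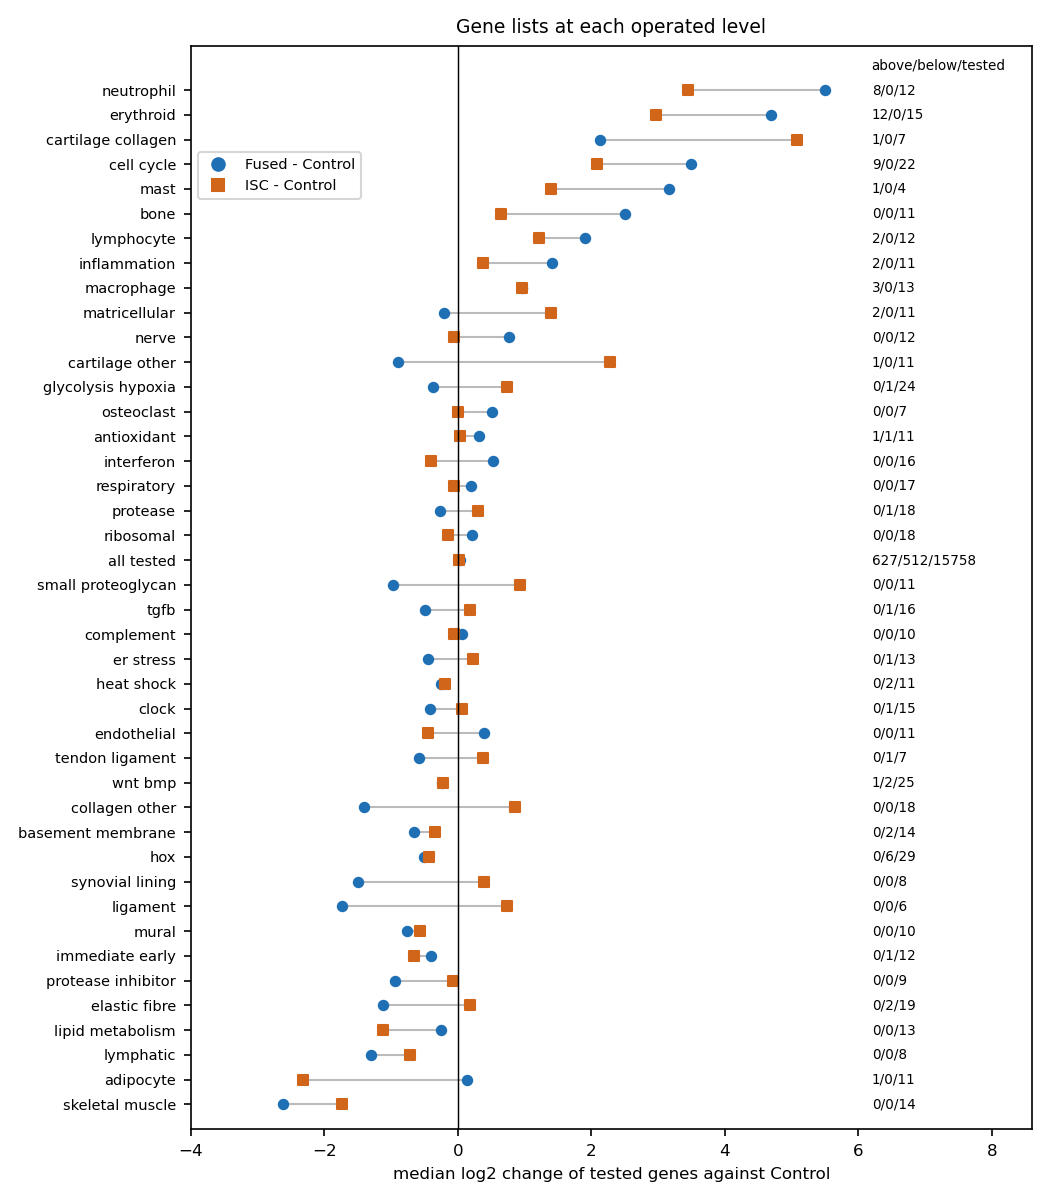
Median log2 change of the tested genes of each list against Control in Fused (blue circles) and ISC (orange squares; the circle is hidden where both coincide), with the number of genes above all Control, below all Control and tested at the right. Neutrophil, erythroid and cell cycle lists are high at both levels, the HOX list lies at -0.50 and -0.42, and the list of other collagens lies on opposite sides of 0, at -1.41 and 0.86.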

How the data were processed

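RNA sequencing of 9 libraries was analysed: 3 Control, 3 Fused and 3 ISC, grouped by their labelled treatment, with replicate numbers from the titles. Per the labels' protocols, total RNA was made into strand-keeping libraries. TopHat, also named in the submitters' processing notes, mapped the reads to oryCun2, and Cufflinks followed, according to the design text. For versions, counter, strand setting and annotation, nothing is given in the sources used here. Each gene's deposited value is a normalized signal, that is, read counts that the authors divided by a library size factor (TMM, by the deposited table's name). In every library, 100% of values were whole multiples of the value of 1 read within a tolerance of 1e-06, and dividing by it gave back the reads. That value is so close to 1 in Fused replicate 2 and ISC replicate 3 that rounded values would look alike. A floor of 3 reads was worth 2.40 to 3.58 scaled counts, and floors cover counting error only. The limma intervals rest instead on the fitted spread between libraries. Libraries of a group correlated at 0.942 to 0.981 across genes on the log2 scale.

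limma 3.58.1 (R 4.3.3) was fitted with a mean-variance trend to log2(scaled count + 1) for the 15758 of 23407 named genes at 1 or more in at least 3 libraries; 7649 were not tested. The model had 3 groups, and the contrast was the mean of Fused and ISC minus Control, two-sided, with Benjamini-Hochberg adjustment over all tested genes. Fold changes on this scale understate the change of low genes. edgeR 4.0.16 and DESeq2 1.42.0 were run on the recovered reads. The fit was tested on simulated data. Of 8020 rows with a locus identifier, 764 matched a symbol in a RefSeq gene table (assembly mOryCun1.1, names only) and 700 took it; coordinates are those of the deposited table. The groups compared, the gene lists and the genes described were chosen with earlier results of these data known. Named genes were those that moved alike, filled to 10 in each direction by the smallest p among symbols without overlap; 1 gene that this rule takes is not reported here, though it is in the counts. Other genes are given for a role or as list members. Alternatives were other scalings, pseudocounts, filters, models and tools, leaving out each library, the 3 haemoglobin-rich libraries, and a haemoglobin covariate.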

Additional observations from a re-analysis of the deposited data

Results flagged for a closer look

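Over the 6 operated libraries as 1 set, 5 genes had a highest library far from the others by Dixon's criterion: TNN (260.83 scaled counts), FRZB (540), WISP1 (254), RGMA (34.3) and ACTA1 (153). The highest library was ISC replicate 3 for TNN and WISP1, and ISC replicate 1 for FRZB, RGMA and ACTA1. The criterion was applied to the named genes, the list members without overlap and the other genes described. About 1 in 20 such groups would be marked in this way by chance if values were normally distributed. Scaled counts pooled over Fused and ISC need not be.

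Of the genes with full values in the text, 9 differed between the Fused and ISC levels at an adjusted p under 0.05 (limma, Fused minus ISC on the log2 scale, 3 libraries each). Lower in Fused were COL2A1 (-5.71), PRG4 (-5.37), COL3A1 (-3.40), ELN (-3.00), TNXB (-2.51) and SOX9 (-2.37). Higher in Fused were DMP1 (4.19), PCK1 (3.29) and GPD1 (3.09). TNXB alone of these also lay on one side of Control in all 6 operated libraries.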

How the results depend on the processing

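The count of genes called, 4 (2 higher, 2 lower, 4 moved alike), depended on the model and tool. In the order higher, lower, called and alike, it was 20, 11, 31 and 23 with the replicate block, 1, 1, 2 and 2 with the mean of same-numbered libraries, 6, 3, 9 and 9 with a pseudocount of 0.1, 0, 2, 2 and 2 with a pseudocount of 5, 1, 1, 2 and 2 at a minimum value of 10, 329, 172, 501 and 349 with array weights, 0, 1, 1 and 1 with edgeR and 473, 147, 620 and 356 with DESeq2. Without the filter and after quantile normalization there was 1 higher gene, and without the trend there were 4 lower. Leaving out 1 library gave 0 to 38 higher, 0 to 24 lower, 0 to 62 called and 0 to 49 alike, with 0 in the fit that lacks Control replicate 3 (1600 with unadjusted p below 0.05) and the most without ISC replicate 1. Without Control replicate 2 and without ISC replicate 3, 2 genes were called, and without ISC replicate 2, 12. limma called 0 genes without the 3 haemoglobin-rich libraries, where Fused keeps 1 library that is assumed to vary like the others (1403 at an unadjusted p under 0.05), and 0 with the haemoglobin share as a covariate (1198). In fits of 1 level alone, 584 higher and 382 lower genes (966) were called for Fused and 6 and 1 (7) for ISC. The cause of these shifts was not tested.

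Same-numbered libraries of different groups had deviations correlated at -0.0959 to 0.305 over 9 pairs, and 8 of 18 matched best with their own number. Between Fused and ISC the correlation was 0.305 for replicate 1, 0.303 for replicate 2 and -0.0959 for replicate 3. Other pairs reached at most 0.270. Whether the numbers pair the samples is therefore not settled. No label ties a library to an animal, so the block counts are given here only. RAB9A was not called with a pseudocount of 5 (adjusted p = 0.066), with edgeR (0.161), without Control replicate 3 (0.0528), without the haemoglobin-rich libraries (0.0548, log2 change 4.94) or with the covariate (0.259, log2 change 4.28). Of 593 values of the 23 named genes under the alternatives, 480 kept their direction and side of the threshold, 29 lost a call, 84 gained one and 0 changed direction. Scaled counts under about 3 are limited by counting error.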
